A study of Mus musculus with 6 samples.

Results

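Cathepsins are proteases of the endosome and lysosome, the acidic compartments in which cells take proteins apart. Described here are 9 cathepsin genes of the mouse, Ctsa, Ctsb, Ctsd, Ctse, Ctsh, Ctsk, Ctsl, Ctss and Ctsz, in sorted progenitor cells of a leukaemia model with and without an inducible Notch domain. The genes were taken by name, and the members are all probe sets to which the platform annotation gives one of these symbols, 19 of the 45037 probe sets that are not Affymetrix controls. A probe set is a group of short probes that together measure a stretch of a transcript. Ctsb had 5 of them, Ctsz had 3, Ctsa, Ctse, Ctsh and Ctsl had 2 each, and Ctsd, Ctsk and Ctss had 1 each.

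The samples were 6 arrays, 3 for each of 2 genotypes. The transplanted cells of both groups were infected with MLL-AF9-IRES-YFP, which brings a leukaemia-causing fusion gene together with a fluorescent marker, and both groups had the tamoxifen-dependent recombinase CreERT2 on one ROSA allele (ROSAwt/CreERT2). The N1-IC group (n = 3) also had lsl-N1-IC, an inducible intracellular domain of Notch1, at one EF1α allele (EF1αwt/lsl-N1-IC). The WT group (n = 3) was EF1αwt/wt. In both groups 50000 cKit+ infected cells and 250000 support cells of wild-type marrow went into irradiated wild-type mice aged 12 weeks, so the host and the support cells were wild type in every sample. Tamoxifen was injected 2 times at 0.2 mg per g from 4 weeks after transplantation, also in the WT group, and marrow was taken 6 days after the last injection. The sorted cells, called LGMP in the labels, were negative for lineage markers and Sca1 and positive for cKit, YFP, CD34 and FcgRII/III. The labels give the WT samples as male and the N1-IC samples as female, so genotype and sex cannot be told apart in any difference. They do not say whether a sample is 1 animal or a pool, so the spread behind each p is that of these samples alone and may be technical.

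Most lysosomal cathepsins are cysteine proteases made as inactive proenzymes, sent to the lysosome by mannose 6-phosphate tags and held in check by cystatins and stefins. Ctsd and Ctse encode aspartic proteases, and Ctsa encodes a serine carboxypeptidase that also stabilises other lysosomal enzymes. Granulocyte and monocyte progenitors build lysosomes and granules from the same pathway, and in antigen-presenting cells cathepsin S trims the invariant chain of MHC class II.

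All 6 arrays had nearly equal value distributions, with medians of 5.63 to 5.67 and upper quartiles of 8.69 to 8.79 on the log2 scale. In the limma fit over all probe sets 4 of 45037 (0.00888%) passed a Benjamini-Hochberg adjusted p under 0.05, namely one of the Y-linked gene Eif2s3y and 3 without a gene name, and none of the members did. The gate genes Kit, Cd34, Fcgr3 and Fcgr2b lay between 10.05 and 13.12 on every array, and all 4 had a lower mean in N1-IC, with a median log2 fold change of -0.21. Cd34 was lower on every N1-IC array (log2 fold change -0.72 ± 0.33, limma adjusted p = 0.644) and lowest, at 10.05, in N1-IC replicate 2. Of 6 Notch check genes, the response genes Nrarp, Hes1 and Hey1 lay higher on every N1-IC array, with log2 fold changes of 2.83, 1.20 and 0.35 (limma adjusted p = 0.639 for each), and the response gene Dtx1 overlapped. Eef1a1 (EF1α) and Notch1, the genes named in the construct, also overlapped. A pair of WT arrays stood apart. In WT replicate 1 the 13 measured late granulocyte markers averaged 7.54, against 9.96 to 10.55 on the other arrays, and in WT replicate 2 the 13 measured erythroid and megakaryocyte markers averaged 8.72, against 6.19 to 6.79. WT replicate 2 also had Xist, the RNA of female cells, at 10.70, against 5.42 and 5.64 in the other WT samples, although its label says male. The Y-linked genes Eif2s3y, Uty and Kdm5d lay higher on all WT arrays. In sorted bulk samples, fewer cells of a type and less RNA per cell cannot be told apart.

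Cathepsin signals were mostly a little lower in the N1-IC cells than in WT, and none of the differences passed the test over all probe sets. Of 19 member probe sets 16 had a lower mean in N1-IC and 3 a higher one, beside 49.5% of all probe sets with a lower mean and 54.1% of those at or above the median level, where 17 of the members lay. These 16 include all 5 probe sets of Ctsb and all 3 of Ctsz, so they are not 16 separate observations. By the brightest probe set of each gene 7 of 9 were lower, beside 47.4% of all genes. The median log2 fold change (N1-IC minus WT) was -0.16 over the members and 0.002 over all probe sets. In 4 member probe sets every N1-IC array lay below every WT array, which 7.02% of all probe sets showed, and in 0 every N1-IC array lay above, which 7.40% showed. These 4 belonged to 3 genes, Ctsh with both of its probe sets and Ctse and Ctsl with 1 of 2 each, so they are not 4 separate observations. Of probe sets at or above the median level 9.07% were lower without overlap. The same 4 had an unadjusted limma p under 0.05, beside 4.13% of all probe sets that were so and lower, 3.57% so and higher, and 7.70% in either direction. The smallest limma adjusted p of a member was 0.563. The count of 16 was 15 without WT replicate 3 and without N1-IC replicate 1 and 16 without any other single array.

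**Figure D1:**
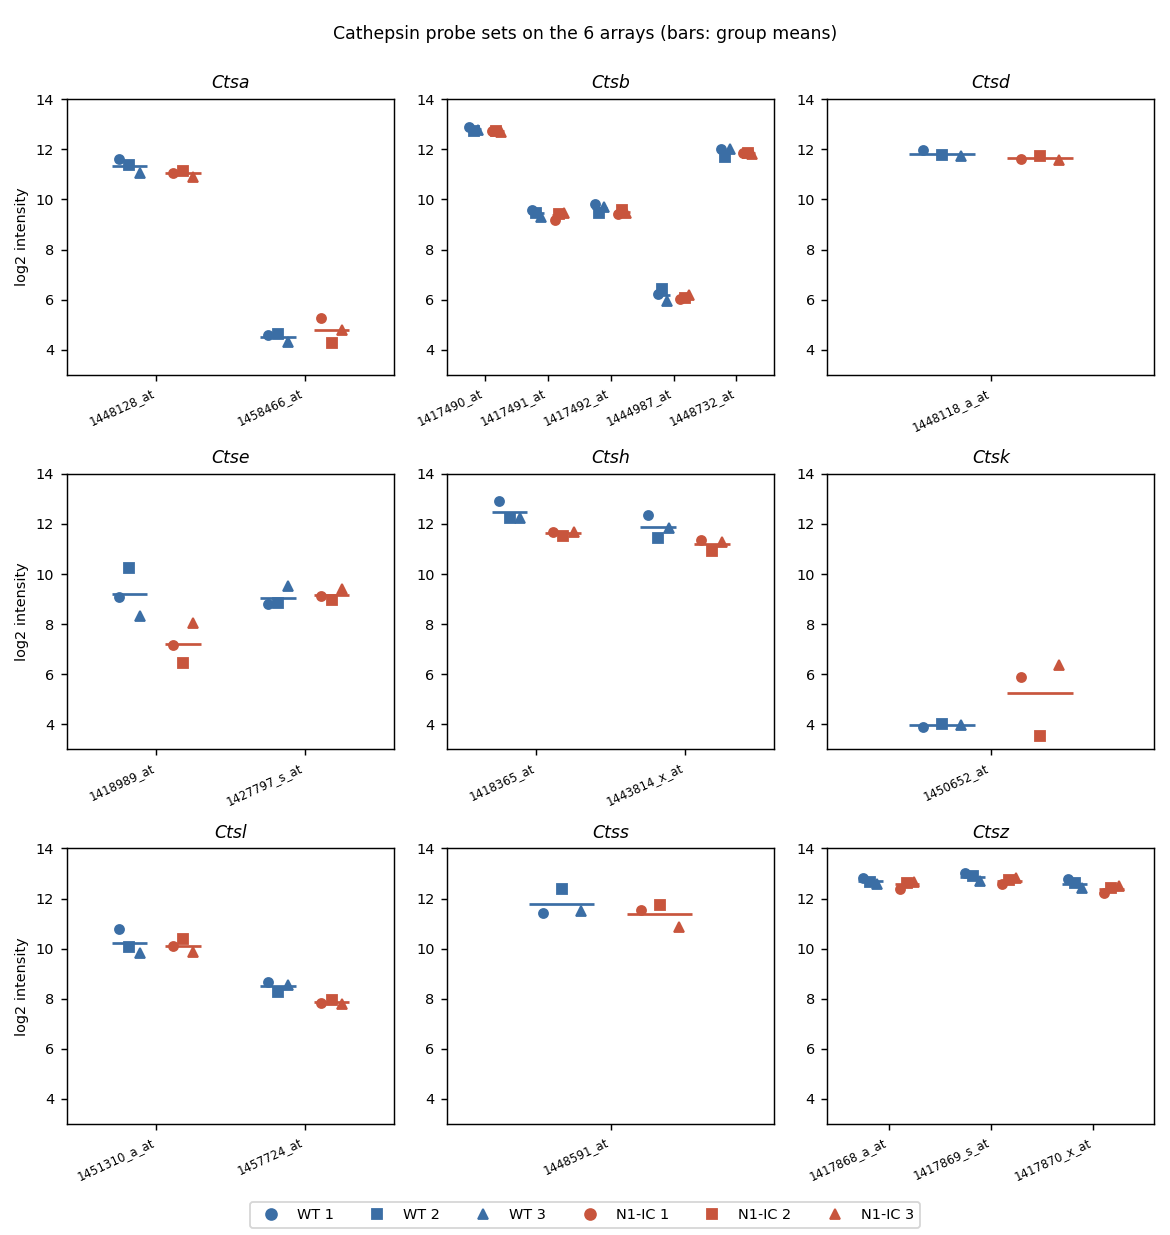
Each point is the log2 intensity of a probe set (x axis) on 1 array, with WT in blue, N1-IC in red, the marker shape giving the replicate and short bars the group means. Both probe sets of Ctsh sit lower on every N1-IC array, 1 of the 2 of Ctse and of Ctsl does so, and Ctsk is higher on 2 of 3 N1-IC arrays.

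**Figure D2:**
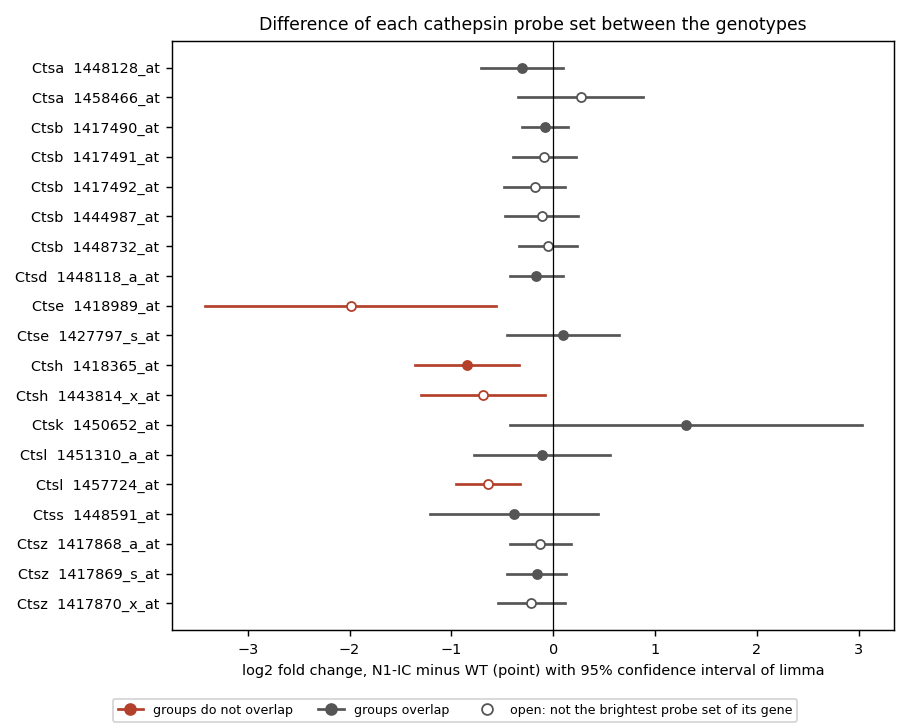
Points give the log2 fold change (N1-IC minus WT) of each of the 19 probe sets and lines its 95% confidence interval from the limma fit, before any correction for multiple testing. Red marks the 4 probe sets whose groups do not overlap, and filled points the brightest probe set of each gene.

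Ctsh encodes cathepsin H, a cysteine protease that acts mainly as an aminopeptidase, and both of its probe sets separated the groups, with all N1-IC arrays below all WT arrays. Its brighter probe set, 1418365_at, was at 12.93, 12.24 and 12.22 log2 units in WT replicates 1, 2 and 3 and at 11.67, 11.51 and 11.67 in N1-IC. The groups did not overlap, and the lowest WT array stood above the highest N1-IC array by more than the whole N1-IC spread. The means were 12.46 ± 0.407 in WT and 11.62 ± 0.0916 in N1-IC (SD, n = 3), a log2 fold change of -0.84 ± 0.21 (standard error), which is 1.79-fold higher in WT. The limma p was 0.00658 unadjusted and 0.639 adjusted over all probe sets. The other probe set, 1443814_x_at, whose suffix marks probes that may also match other transcripts, was at 12.34, 11.43 and 11.85 in WT and at 11.35, 10.93 and 11.28 in N1-IC. It gave -0.69 ± 0.25 (limma unadjusted p of 0.0324, adjusted p of 0.639). Both were highest in WT replicate 1, the array with few late granulocyte transcripts. Without that array the log2 fold change of 1418365_at was -0.61 and that of 1443814_x_at -0.45, so the size was smaller. The direction could not change, because the groups of both probe sets do not overlap.

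Ctse encodes cathepsin E, an aspartic protease of endosomes found in blood and immune cells, and its probe sets disagreed. With 1418989_at, which the platform table pairs with a RefSeq mRNA record, WT replicates 1, 2 and 3 were at 9.08, 10.24 and 8.33 and N1-IC replicates at 7.17, 6.45 and 8.06. The groups did not overlap, but WT replicate 3 and N1-IC replicate 3 were close to each other. The means were 9.22 ± 0.963 in WT and 7.23 ± 0.807 in N1-IC (SD, n = 3), a log2 fold change of -1.99 ± 0.59 or 3.98-fold higher in WT, with a 95% interval of -3.42 to -0.56 (limma unadjusted p of 0.0141, adjusted p of 0.639). No other member probe set had a log2 fold change this far from 0. The other probe set, 1427797_s_at, the brighter one over all 6 arrays but not over the WT arrays alone, whose suffix marks probes shared by several transcripts and whose record is not a RefSeq mRNA, was at 8.82, 8.83 and 9.52 in WT and at 9.12, 8.95 and 9.39 in N1-IC. Its groups overlapped, with a log2 fold change of 0.09 ± 0.23.

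The disagreement of the Ctse probe sets was itself compared between the groups. The within-array difference, 1418989_at minus 1427797_s_at, was 0.26, 1.41 and -1.19 in WT and -1.95, -2.50 and -1.32 in N1-IC. It was lower on every N1-IC array, and the change of -2.09 had a 2-sided exact permutation p of 0.1, which is the smallest p that 3 arrays against 3 can give, so no such test could pass 0.05. Such a difference was computed for all 4 members with 2 probe sets, and the p adjusted over them was 0.4 for each. WT replicate 2, which gave the highest value of 1418989_at, also had the highest mast cell, basophil and eosinophil list (8.06, against 6.53 to 7.79 elsewhere). The erythroid and megakaryocyte list was highest there too. In WT replicate 1, where 1418989_at was at 9.08, the mast cell, basophil and eosinophil list averaged 6.865 and the erythroid and megakaryocyte list 6.21. In the erythroid and megakaryocyte list the erythroid factor gene Klf1 was at 10.04 in WT replicate 2 and at 5.46 to 6.25 elsewhere. The summed intensity of its 13 markers ran from 4784 to 23771 over WT and from 4671 to 7892 over N1-IC. Without WT replicate 2 the log2 fold change of 1418989_at was -1.48, and the part of erythroid or mast cell RNA in it was not tested. The mean of both probe sets gave -0.95 ± 0.29 (limma adjusted p = 0.624).

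Ctsl encodes cathepsin L, an endopeptidase of broad specificity, and 1 of its 2 probe sets separated the groups. With 1457724_at the WT arrays were at 8.67, 8.27 and 8.55 and the N1-IC arrays at 7.83, 7.95 and 7.79. The groups did not overlap and the replicates of each lay close together. The log2 fold change was -0.64 ± 0.13 (95% interval -0.96 to -0.33), with a limma p of 0.00238 unadjusted, the smallest of any member, and 0.563 adjusted. With the brighter 1451310_a_at the WT arrays were at 10.80, 10.07 and 9.85 and the N1-IC arrays at 10.12, 10.39 and 9.87. These groups overlapped, with a log2 fold change of -0.11 ± 0.27, and without WT replicate 1, its highest array, the value was 0.17. The within-array difference of the 2 probe sets moved by -0.53 between the groups (exact permutation p of 0.2, 2-sided, where 0.1 is the smallest possible).

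Ctsb, which encodes the cysteine protease cathepsin B, had nearly equal signals in both genotypes by all 5 probe sets. The brightest, 1417490_at, was at 12.90, 12.72 and 12.77 in WT and at 12.72, 12.73 and 12.68 in N1-IC, which gives a log2 fold change of -0.08 with a 95% interval of -0.31 to 0.14. The second brightest, 1448732_at, was at 11.99, 11.69 and 12.02 in WT and at 11.87, 11.85 and 11.83 in N1-IC, which gives -0.05 (95% interval -0.34 to 0.24). In both the N1-IC arrays lay within a narrow band, with SDs of 0.0256 and 0.0234 against 0.0918 and 0.183 in WT. The log2 fold changes of the other 3 probe sets were -0.09 for 1417491_at, -0.18 for 1417492_at and -0.11 for 1444987_at, and all groups overlapped. Over the 5 probe sets the 95% intervals reached down to -0.48 and up to 0.24.

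Ctsz encodes cathepsin Z, also called cathepsin X, a cysteine carboxypeptidase. Its brightest probe set, 1417869_s_at, was at 13.01, 12.88 and 12.71 in WT and at 12.58, 12.72 and 12.80 in N1-IC, which gives a log2 fold change of -0.16 (95% interval -0.45 to 0.13). The other probe sets gave -0.13 (1417868_a_at) and -0.22 (1417870_x_at). All 3 were highest in WT replicate 1 and lowest in N1-IC replicate 1, and the groups overlapped in each. The log2 fold change of 1417869_s_at was -0.09 without WT replicate 1 and -0.10 without N1-IC replicate 1.

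Ctss encodes cathepsin S, the protease that cleaves the MHC class II invariant chain. Its probe set, 1448591_at, was at 11.44, 12.38 and 11.49 in WT and at 11.55, 11.76 and 10.85 in N1-IC. WT replicate 2 was high and N1-IC replicate 3 low, while the other 4 arrays lay between 11.44 and 11.76. The log2 fold change of -0.39 ± 0.34 (limma adjusted p = 0.748) shrank to -0.08 without WT replicate 2 and to -0.12 without N1-IC replicate 3. Cd74, which encodes the invariant chain itself, was at 5.81, 7.99 and 6.76 in WT and at 8.38, 8.49 and 8.63 in N1-IC, which gives a log2 fold change of 1.65 ± 0.52 with groups that did not overlap (limma adjusted p = 0.639). Among 9 measured class II pathway genes 4 were higher and 5 lower in mean, and 0 passed. Without overlap 2 were higher and 1 lower, beside 8.32% and 6.52% of all genes. By the brightest probe set H2-Aa had a log2 fold change of 0.80 ± 0.16 (limma adjusted p = 0.555). H2-DMa had -0.46 ± 0.18 (limma adjusted p = 0.644), and neither overlapped between the groups. A dimmer probe set of H2-DMa gave -0.12 with groups that overlapped.

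Ctsk encodes cathepsin K, the collagen-degrading protease of osteoclasts, and it was the member that varied most between arrays of one genotype by the brightest probe set. Its probe set, 1450652_at, was at 3.88, 4.03 and 3.99 in WT and at 5.89, 3.54 and 6.38 in N1-IC, which in linear intensity is 14.7, 16.3 and 15.9 against 59.2, 11.6 and 83.4. N1-IC replicates 1 and 3 lay above every WT array and N1-IC replicate 2 below every WT array. The WT values were near the lower quartile of the arrays (3.86 to 3.92), and whether they exceed background is unknown because detection calls were not used here. The log2 fold change was 1.30 ± 0.71 (95% interval -0.42 to 3.03, limma adjusted p = 0.668). Without N1-IC replicate 2 it was 2.17 ± 0.18 (limma unadjusted p of 5.1e-05, adjusted p of 0.275), which did not pass either. Without N1-IC replicate 3 it was 0.75 and without N1-IC replicate 1 it was 0.99.

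Osteoclast, stromal and endothelial markers, averaged as 1 mixed list, did not follow Ctsk. Of the 13 measured, 3 had a mean above the median level of all probe sets. The cell source of the Ctsk signal was not tested. The 13 osteoclast, stromal and endothelial markers averaged 5.21 to 5.57 over WT and 5.28 to 5.36 over N1-IC, with summed intensities of 1960 to 3850 and of 1464 to 2201. The osteoclast markers Dcstamp, Ocstamp and Calcr lay at 2.67 to 4.61 on all arrays, below the array medians. Acp5, the acid phosphatase of osteoclasts and macrophages, was at 9.59, 9.11 and 9.26 in WT and at 9.84, 9.33 and 9.89 in N1-IC, so its highest arrays were those of Ctsk too. The genes whose profile over the 6 arrays lay closest to that of Ctsk, among 1512 genes with at least 50% of its range, were Cpe, Gm5914, Cd247, Ang and Prr36. Their root mean square differences from it were 0.36, 0.42, 0.47, 0.48 and 0.54 log2 units after each gene was centred on its own mean. With 6 arrays and so many candidates such likeness is a description only. Ctsk and Ctss are neighbours on chromosome 3 in the RefSeq table (GRCm38.p6), between Arnt and Hormad1, and their highest arrays were different ones. The brightest probe set of Arnt had a log2 fold change of 0.33 and that of Hormad1 one of -0.13, and both overlapped. The next brightest of Arnt gave 0.11 with every N1-IC array higher, and its dimmer ones overlapped. Hormad1 lay at 2.66 to 3.07 on all arrays, below their lower quartiles.

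Ctsd, which encodes the aspartic protease cathepsin D, and Ctsa, which encodes the protective serine carboxypeptidase, had slightly lower means in N1-IC. Ctsd (1448118_a_at) was at 11.97, 11.76 and 11.72 in WT and at 11.63, 11.74 and 11.59 in N1-IC, which gives a log2 fold change of -0.17 (95% interval -0.43 to 0.10). Ctsa (1448128_at) was at 11.62, 11.37 and 11.04 in WT and at 11.07, 11.13 and 10.91 in N1-IC, which gives a log2 fold change of -0.31 (95% interval -0.71 to 0.10). Both were highest in WT replicate 1 and lowest in N1-IC replicate 3, and the groups overlapped. Without WT replicate 1 the log2 fold change was -0.17 for Ctsa and -0.09 for Ctsd. A second probe set of Ctsa, 1458466_at, lay at 4.28 to 5.25 on all arrays, below the array medians, with a log2 fold change of 0.27 ± 0.25.

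Their promoters are shown because both hold the hexamer at the core of the CLEAR element, the site bound by TFEB, a regulator of lysosomal genes. The RefSeq promoter table (GRCm38.p6) had windows of 300 bases, 250 before a start site and 50 from it on, for 6 of the 9 members. Ctsb, Ctse and Ctsh had none. CACGTG, which reads the same on both strands, is in capitals. The windows are chr2:164833523-164833822 (plus strand, the second of 2 start sites of Ctsa) and chr7:142387778-142388077 (minus strand, Ctsd), each written 5′ to 3′ on the gene's strand.
Ctsa: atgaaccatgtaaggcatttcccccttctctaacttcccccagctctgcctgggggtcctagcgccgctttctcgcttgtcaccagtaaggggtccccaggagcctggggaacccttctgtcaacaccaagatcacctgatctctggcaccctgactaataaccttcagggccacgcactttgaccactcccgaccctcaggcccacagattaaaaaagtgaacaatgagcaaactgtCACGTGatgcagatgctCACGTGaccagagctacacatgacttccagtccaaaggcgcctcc
Ctsd: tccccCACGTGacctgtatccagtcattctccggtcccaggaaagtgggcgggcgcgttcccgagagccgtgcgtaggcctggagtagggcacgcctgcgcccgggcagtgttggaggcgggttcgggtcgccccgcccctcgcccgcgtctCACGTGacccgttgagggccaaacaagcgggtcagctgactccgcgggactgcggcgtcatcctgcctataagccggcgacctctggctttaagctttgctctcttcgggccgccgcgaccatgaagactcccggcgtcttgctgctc
In the Ctsa window the motif began 12 bases before and 5 bases after the start site, and in the Ctsd window 245 and 98 bases before it. Ctsl had 1 match, 236 bases before its start, and the windows of Ctsk, Ctss, Ctsz and the first start of Ctsa had none. This hexamer was in 7.15% of all 32851 windows. A form of the RBPJ site through which Notch acts, GTGGGAA, was searched on both strands and found in 0 of the 7 member windows, beside 6.38% of all windows. A form of the Ets-type site bound by the myeloid factor PU.1, GAGGAAG, was searched likewise and was in the windows of Ctsk and Ctss, beside 13.6% of all windows. A match is a run of letters and does not show binding.

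Many of the members shared a high value in WT replicate 1. That array was the highest of the 6 for 12 of the 19 member probe sets, namely those of Ctsa (1 of 2), Ctsb (3 of 5), Ctsd, Ctsh, Ctsl and Ctsz, and for 6 of the 9 brightest probe sets. Over all probe sets it was the highest for 21.3%, and for 23.4% of those at or above the median level. No N1-IC array was the highest for more than 1 member. WT replicate 1 was also the array with the low late granulocyte markers, of which all 13 had a higher mean in N1-IC. Of these 1, Mmp9, was higher without overlap, beside 8.32% of all genes, and its dimmer probe set gave 0.74 with overlap. Without WT replicate 1 the median log2 fold change of the late granulocyte markers was 0.06 in place of 0.87, and 4 of the 13 were lower. Their summed intensity was 9220 in WT replicate 1, against 71750 and 74720 in the other WT samples and 62500 to 82920 in N1-IC. The part of this difference in cell make-up was not tested. With WT replicate 1 left out, the median log2 fold change of the 9 brightest member probe sets was -0.09 in place of -0.16. The number lower was 7 of 9 in both cases, but not for the same genes, since Ctsl went from -0.11 to 0.17 and Ctse from 0.09 to -0.025.

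**Figure D3:**
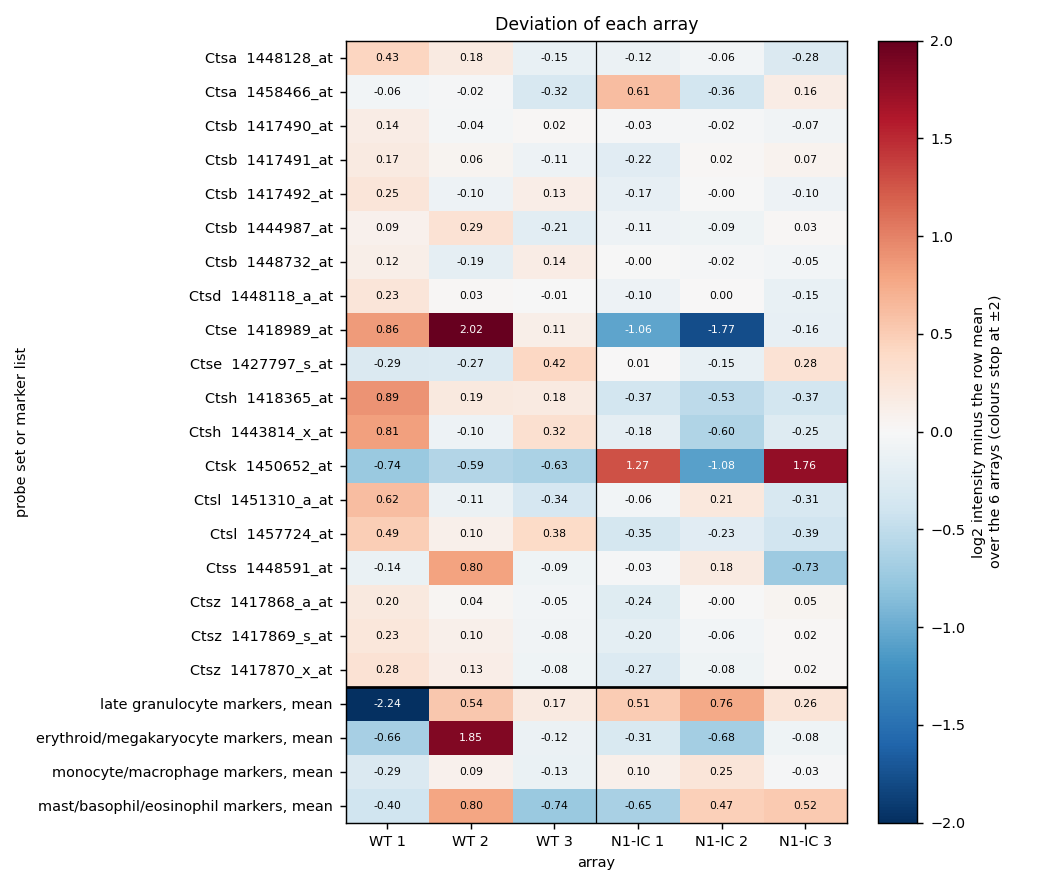
Each cell gives the log2 intensity of a member probe set, or below the line the mean of a marker list, minus its mean over the 6 arrays (columns), with red above and blue below the mean and colours stopping at 2 units. WT replicate 1 is red for most members while the late granulocyte list is 2.24 below its mean there, and WT replicate 2 stands out for Ctse 1418989_at, Ctss and the erythroid and megakaryocyte list.

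None of the genes in the other lysosomal lists passed the test, and the list medians lay between -0.07 and 0.09. Without WT replicate 1 the cathepsin median was -0.09 and that of the cathepsin inhibitors 0.12, farther from 0. Each gene is given here by its brightest probe set, by which 47.4% of 18193 genes had a lower mean in N1-IC, 6.52% were lower and 8.32% higher without overlap, and the median log2 fold change was 0.01. Of the 9 members 7 were lower by this measure, 1 without overlap (Ctsh), and their median was -0.16. Ctsh was also the 1 member with an unadjusted limma p under 0.05 by this measure, beside 7.22% of all genes in either direction. Among the other cathepsins 2 of 5 were lower, none without overlap. Ctsg, the granule protease gene, was at 13.92 to 14.01 on all arrays, and Ctso had a log2 fold change of 0.23 ± 0.20. Ctsc, whose product activates granule proteases, was at 11.52 to 11.62 on all arrays by its brightest probe set, while a dimmer one lay higher on every N1-IC array (log2 fold change 0.69 ± 0.12, limma adjusted p = 0.521). Ctsf, which encodes a further cysteine cathepsin, was at 7.74, 6.18 and 6.90 in WT against 5.85, 5.29 and 6.22 in the N1-IC group, a log2 fold change of -1.16 ± 0.43 (limma adjusted p = 0.639), and WT replicate 2 lay below N1-IC replicate 3. Without WT replicate 1 the value was -0.76, and a dim second probe set of Ctsf gave 0.23 with every N1-IC array higher.

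Cathepsin inhibitors included the widest differences of these lists. Of 9 measured genes the mean was higher in 7 and lower in 2, with 0 past the threshold. The stefin gene Stfa3 was at 6.09, 8.89 and 7.50 in WT and at 9.97, 10.56 and 8.62 in N1-IC, which gives a log2 fold change of 2.22 ± 0.80 that was 1.52 without WT replicate 1. Stfa2l1, of the same family, was at 6.08, 10.98 and 10.48 in WT and at 12.07, 12.40 and 10.27 in N1-IC, which gives a log2 fold change of 2.40 ± 1.36 that was 0.85 without WT replicate 1. Both were lowest on the array that was lowest in late granulocyte markers. Serpinb1a, which encodes an inhibitor of granule serine proteases, had a log2 fold change of 0.17 ± 0.11. The broadly expressed inhibitor genes Cst3 and Cstb had log2 fold changes of -0.01 and 0.01.

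Of 31 measured lysosomal hydrolases 12 were higher and 19 lower, 3 and 6 of them without overlap, and 0 passed. Without WT replicate 1 only 14 of the 31 were lower, and the median was 0.006 in place of -0.07. Galc, the galactosylceramidase gene, had a log2 fold change of 0.55 ± 0.18, and Ppt1, which encodes a palmitoyl-protein thioesterase, one of -0.33 ± 0.12. A dimmer probe set of Ppt1 had the opposite sign, 0.94 ± 0.33, also without overlap. Dnase2a, the gene of the lysosomal DNase, had -0.42 ± 0.15, and the limma adjusted p of all 3 was 0.639. Of 14 genes of the lysosomal membrane and activator proteins 6 were higher and 8 lower. Grn, which encodes progranulin, was at -0.22 ± 0.11 and Mcoln1, a lysosomal calcium channel gene, at -0.44 ± 0.24, both without overlap. Their dimmer probe sets overlapped, with -0.12 and -0.16 for Grn and -0.22 and 0.015 for Mcoln1. Cd68, which encodes macrosialin, was at -0.46 ± 0.25. Of 14 subunits of the vacuolar ATPase, the proton pump that acidifies lysosomes, 6 were higher and 8 lower, with a median of -0.005. Atp6v1d, Atp6v0a1 and Atp6v1e1 had log2 fold changes of 0.17, -0.35 and -0.11. Of these 3 lists no gene passed, and the smallest limma adjusted p was 0.639.

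Among 10 genes of mannose phosphate sorting, the route by which most of these enzymes reach the lysosome, 6 were higher and 4 lower. Igf2r, the larger receptor of that tag, was at 7.91, 9.33 and 9.45 in WT and at 9.88, 10.23 and 9.84 in N1-IC. Every N1-IC array lay above every WT array, with a log2 fold change of 1.09 ± 0.42 (limma adjusted p = 0.64) that was 0.59 without WT replicate 1. A second probe set of Igf2r gave 0.84, also without overlap. Gnptg, a subunit gene of the enzyme that makes the tag, had -0.33 ± 0.14, and Gga2, which encodes a sorting adaptor, 0.20 ± 0.11. Of 7 transcription factor genes with a role in lysosomal or myeloid genes 2 were higher and 5 lower. Tfeb and Tfe3 had log2 fold changes of -0.06 and 0.16, Tfec and Spi1 of 0.18 and -0.12, and Irf8, a factor of the monocyte line, one of -0.48 ± 0.21 (limma adjusted p = 0.644) with groups that overlapped. Of 13 measured monocyte and macrophage markers 8 were higher and 5 lower in mean. Without overlap 4 were higher and 0 lower, beside 8.32% and 6.52% of all genes. None passed, and their median of 0.21 was 0.09 without WT replicate 1, where 6 of the 13 were lower.

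**Figure D4:**
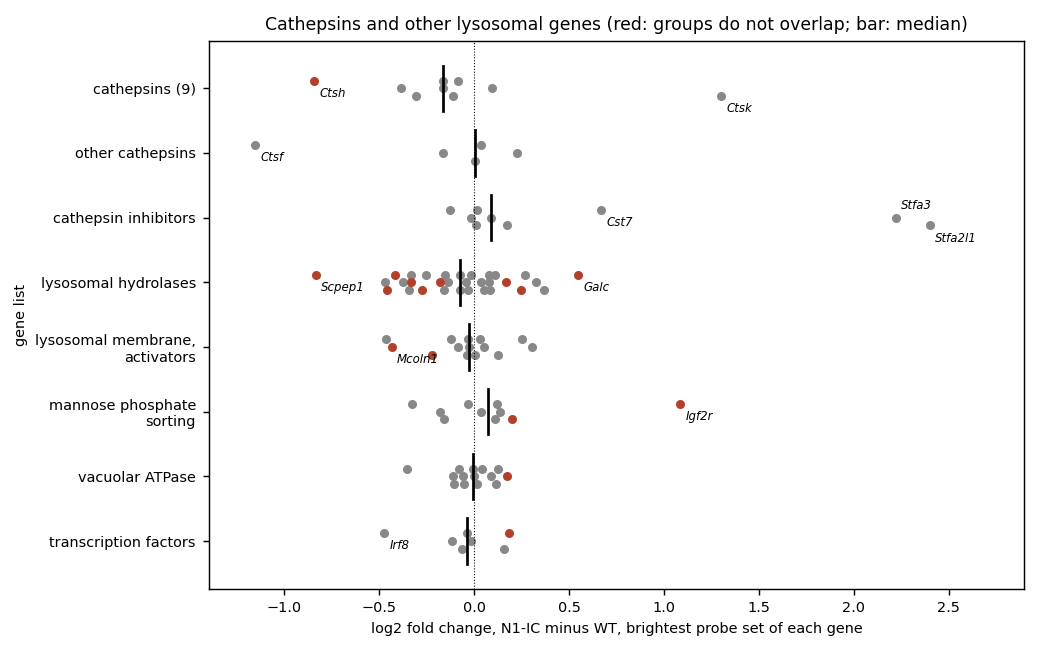
Each point is the log2 fold change (N1-IC minus WT, x axis) of 1 gene by its brightest probe set, by gene list, with the list median as a black bar and genes whose groups do not overlap in red. The cathepsin median lies at -0.16, and the list medians of the other lysosomal genes lie between -0.07 and 0.09.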

How the data were processed

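RNA of 6 sorted samples (5 ng each) was amplified, labelled with biotin and hybridised to Affymetrix arrays, per the labels' protocols. The values deposited by the authors are probe set intensities on a linear scale, and the submitters' processing notes name RMA, which corrects background, normalizes by quantiles and summarises probes, without a version. Such normalization removes differences in total signal, so changes are relative to the other probe sets. Log2 was taken with no offset. No depth applies to arrays, and their number limits the precision. Detection calls were not used here.

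Of 45101 probe sets 64 controls were left out. Of the rest, those with a single symbol (34958) could be named, and the platform annotation is old, so symbols were updated by Entrez identifier through RefSeq (34754 matched). N1-IC was compared with WT in R 4.3.3 with limma 3.58.1 (lmFit, eBayes, no replicate block) over all 45037 probe sets, called at an adjusted p under 0.05. The fit was tested on simulated data. The alternatives tried were array weights, a robust prior, a mean-variance trend, further quantile normalization, median centring, an offset of 16, a filter at the median level, the brightest probe set or the mean per gene, a replicate block, a threshold of 0.1 and each array left out. The genes named are all members, up to 3 genes with the smallest p of each related list, check genes, defining markers of lists that moved with a member, and the 5 genes most like Ctsk. The same rule gave 5 genes for Ctsz, the brightest member, whose profile was nearly flat: Ints9, Gbgt1, Ddx50, Abca8a and Lyzl4, within 0.016 to 0.033 log2 units. Further genes named as background (Cd74, H2-Aa, H2-DMa, Ctsc, Cst3, Cstb, Tfeb, Tfe3, Arnt, Hormad1 and the osteoclast markers) were chosen after their values were seen. Differences between the 2 probe sets of a gene were tested by exact permutation of the arrays, and the counts of members lower in mean or in unadjusted p were added after seeing the data. The members and gene lists were chosen with earlier results of these data known.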

Additional observations from a re-analysis of the deposited data

How the results depend on the processing

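Under all alternatives run, 0 cathepsin probe sets passed an adjusted p under 0.05, and the smallest limma adjusted p was 0.275 (Ctsk without N1-IC replicate 2). The mean-variance trend, robust prior, median-level filter, brightest probe set and replicate block change the test but not a probe set's log2 fold change. They repeat the main value and could not reverse it. With them counted, 273 of 282 alternative log2 fold changes of the members kept their direction and 9 reversed. For Ctsb these were 0.0035 for 1417491_at without N1-IC replicate 1, 0.0026 for 1444987_at without WT replicate 2 and 0.0082 for 1448732_at without WT replicate 3. For Ctse 1427797_s_at they were -0.025, -0.017 and -0.023 without WT replicate 1, WT replicate 2 and N1-IC replicate 3, and -0.95 with its probe sets averaged. For Ctsl 1451310_a_at they were 0.17 without WT replicate 1 and 0.016 without N1-IC replicate 3. The value of -0.95 is that of both Ctse probe sets together, so the -1.99 of 1418989_at is part of it. Each of the other reversals came with 1 array left out, and why single arrays differed was not tested. With 1 array left out these 5 probe sets ranged from -0.16 to 0.0035, from -0.25 to 0.0026, from -0.16 to 0.0082, from -0.025 to 0.33 and from -0.31 to 0.17, in that order. Both probe sets of Ctsh, 1418989_at of Ctse and 1457724_at of Ctsl kept their direction throughout. Their groups do not overlap, so leaving out 1 array could not reverse them.

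Both counts that follow were chosen after seeing the data. The members with a lower mean numbered 16, 15 to 16 with 1 array left out, 7 of 9 with the brightest probe set per gene and 8 of 9 with the mean per gene, where fewer units are counted. Those lower at an unadjusted limma p under 0.05 numbered 4, 3 to 4 with 1 array left out, 1 of 9 by the brightest probe set and 2 of 9 by the mean. Over all probe sets 4 passed, against 7 with a mean-variance trend, 1 gene with the brightest probe set, 2 with the replicate block, 10 at a threshold of 0.1 and 3 to 8 with 1 array left out. Same-numbered samples did not deviate together (correlations of 0.013, 0.040 and -0.077 over probe sets). This does not exclude a pairing, which the labels do not state. The replicate block changed no call of a member. Dim probe sets, such as those of Ctsk, may lie at background.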
